A study of Homo sapiens with 6 samples.

Results

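A group of long RNAs, most of which host small nucleolar RNAs or act in the nucleus, was followed in UMUC3 cells, a line established from a human bladder cancer. The group was chosen by gene symbol and took in every numbered SNHG gene in the table (28 genes) and 16 further long RNAs, among them MALAT1, NEAT1 and GAS5, so that it held 44 of the 60605 genes counted. RNA sequencing libraries were made from total RNA of 3 samples infected with TIM-1-PLVX-IRES-zsgreen, which carries TIM-1, a phosphatidylserine receptor encoded by HAVCR1, and of 3 samples infected with the empty vector PLVX-IRES-Zsgreen. All 6 samples therefore carried the vector and its green fluorescent reporter, and the labels give neither the time after infection nor whether clones or pools were used. The comparisons were TIM-1 against the empty vector and replicate 1 against replicates 2 and 3 of both groups. The comparison of replicates was chosen with earlier results of these data known, so its p-values are not those of a planned test. Whether the replicates came from separate cultures is not said in the labels. The p-values therefore cover the spread among these 6 libraries alone, and that spread may be technical.

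Small nucleolar RNAs (snoRNAs) guide the chemical modification of ribosomal RNA and are mostly cut from introns of longer host transcripts. In most SNHG genes, and in GAS5, ZFAS1, DANCR and EPB41L4A-AS1, an intron holds the small RNA. The spliced host RNA mostly codes for no conserved protein and in several cases is removed by nonsense-mediated decay, but SNHG32 is annotated as protein coding. Many of these hosts start with a pyrimidine tract, like ribosomal protein genes. MALAT1 accumulates in nuclear speckles, and NEAT1 is the scaffold of paraspeckles. MIR17HG, MIR22HG and H19 are precursors of microRNAs, and NORAD is a cytoplasmic RNA that binds Pumilio proteins.

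MIR17HG (plus strand of GRCh38, chromosome 13, 91347820 to 91354579) was the long RNA with the largest called difference between replicates, so the mature microRNAs cut from it are shown, from RefSeq on GRCh38.p14. Capitals mark the seed, bases 2 to 8, which pairs with target RNAs.
hsa-miR-17-5p: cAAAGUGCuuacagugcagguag
hsa-miR-20a-5p: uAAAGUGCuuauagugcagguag
hsa-miR-18a-5p: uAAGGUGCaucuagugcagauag
hsa-miR-19a-3p: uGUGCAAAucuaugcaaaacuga
hsa-miR-19b-3p: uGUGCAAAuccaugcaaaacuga
hsa-miR-92a-3p: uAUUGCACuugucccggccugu
miR-17-5p and miR-20a-5p share a seed, as do miR-19a-3p and miR-19b-3p. All 6 hairpin rows of the table held 0 counts in every library, so the counts bear on the host transcript and not on these microRNAs.

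Stretches of 60 bases around the annotated start are shown for ZFAS1, SNHG32, SNHG26 and SNHG8. These are the hosts that were lower in replicate 1 and hold CTTTC or CTTTT, in capitals, on the sense strand between 10 bases before and 25 bases after the start. The sequences are from RefSeq on GRCh38.p14.
ZFAS1, plus strand, chr20:49278622-49278681: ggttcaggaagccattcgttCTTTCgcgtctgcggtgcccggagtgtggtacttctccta
SNHG32, plus strand, chr6:31834896-31834955: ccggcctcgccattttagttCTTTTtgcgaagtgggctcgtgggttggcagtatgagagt
SNHG26, plus strand, chr7:22854220-22854279: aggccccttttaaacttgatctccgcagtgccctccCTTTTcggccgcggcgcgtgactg
SNHG8, plus strand, chr4:118278742-118278801: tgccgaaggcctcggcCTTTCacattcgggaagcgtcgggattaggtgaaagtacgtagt
A window from 250 bases before to 50 bases after the start was found for 36 of the 44 genes. Of the 36, 10 (27.8%) held CTTTC or CTTTT between 10 bases before and 25 bases after the start, against 8.52% of 35116 RefSeq windows. Among genes with a window, 4 of the 12 that were lower in replicate 1 held it, and so did 6 of 15 that were tested and not called. The match is a description of these letters only.

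HAVCR1 itself was counted 7069, 9824 and 11479 times with TIM-1 and 4, 0 and 0 times with the empty vector, in the order of replicates 1 to 3. Total counts were 14312387 to 18605914 in the TIM-1 libraries and 15651864 to 17162935 in the empty-vector libraries, and replicate 1 was the smallest library of its group in both. Genes of mitochondrial DNA took 4.38% to 4.46% of the counts with TIM-1 and 4.20% to 5.08% with the empty vector, with no separation of replicate 1. The epithelial keratin gene KRT18 and the mesenchymal gene VIM were abundant, with means of 343 and 1639 CPM in TIM-1 libraries, against 409 and 1818 CPM in empty-vector libraries (CPM is the read count scaled to a common library size), while the leukocyte gene PTPRC had 0 counts. KRT18 and VIM were lower in replicate 1 by 0.51 and 0.29 on the log2 scale (edgeR adjusted p = 5.58e-05 and 0.00316), and KRT18 fell by 0.24 with TIM-1 with the replicate number as a block (edgeR adjusted p = 0.00946). The other keratin listed, KRT8, averaged 45.8 CPM in TIM-1 libraries and 43.9 CPM in empty-vector libraries and was not called in either comparison, at 0.07 for replicate 1 and 0.06 for TIM-1 with the block. The part of these markers in the results on the long RNAs was not tested. The urothelial genes UPK1A, UPK1B, UPK2 and UPK3A averaged at most 0.626 CPM in either group, so these defining markers of urothelium were at or near 0. The long RNAs studied took 0.239% to 0.299% of the counts with TIM-1 and 0.230% to 0.289% with the empty vector.

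NEAT1 took the most counts of the 44, averaging 678 ± 198 CPM in TIM-1 libraries and 555 ± 170 CPM in empty-vector libraries (± is the SD of 3 libraries here and below). Per kilobase of exon the order was different, because the annotated exons of NEAT1 cover 22767 bases. On that scale, CPM per kilobase (RPKM), SNHG29 stood highest at 67.3 ± 4.29 RPKM with TIM-1 and 63.3 ± 2.73 RPKM with the empty vector. GAS5 followed at 59.7 ± 10.1 RPKM with TIM-1 and 60.3 ± 7.02 RPKM with the empty vector, then SNHG6 at 49.6 ± 12.0 and 46.1 ± 7.63 RPKM and NORAD at 44.2 ± 3.07 and 47.0 ± 4.67 RPKM. SNHG29 and GAS5 did not differ beyond their spread, nor did SNHG6 and NORAD, while the step between GAS5 and SNHG6 was smaller than their spread with TIM-1 and larger than it with the empty vector. MALAT1 stood at 28.6 ± 5.02 RPKM with TIM-1 and 24.2 ± 5.31 RPKM with the empty vector. NEAT1 was close to it on this scale, at 29.8 ± 8.71 and 24.4 ± 7.47 RPKM. All annotated exon bases of a gene were taken as its length. Levels per kilobase, and their order, therefore depend on which transcripts of a gene were present, which was not tested. The microRNA hosts were lower, with MIR22HG at 6.73 ± 0.0167 RPKM, MIR17HG at 2.14 ± 0.770 RPKM and H19 at 0.686 ± 0.315 RPKM with TIM-1. Their levels were 6.77 ± 1.17, 2.66 ± 1.23 and 0.410 ± 0.138 RPKM with the empty vector.

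At the other end, MEG3, UCA1, SNHG18 and SNHG28 had 0 counts in all 6 libraries, and a count of 0 allows up to 0.207 CPM in the shallowest library. MEG3 is an imprinted long RNA, and UCA1 is named for urothelial cancer. HOTAIR, a long RNA of the HOXC cluster, had 1 count in empty-vector replicate 1 and 0 elsewhere. SNHG9, SNHG14, SNHG21, SNHG22, SNHG25 and SNHG31 had at most 19 counts in any library. These 11 genes did not pass the low-count filter, and 33 of the 44 were tested. Other counted genes also cover 100% of the exon bases of SNHG28 and 72.9% of those of SNHG21. The part of this overlap in their low counts was not tested. SnoRNA and scaRNA rows inside the hosts were almost empty, with 133 of 144 at 0 in every library, so the hosts' counts do not measure these small RNAs. Of the 144 rows 84 lay inside SNHG14, a host that was not tested, and all of those were empty. None of the 144 rows lay inside SNHG27 or inside GAS5, whose snoRNAs were not analysed here. The exception with most counts was SNORA73B inside SNHG3, counted 56, 139 and 123 times with TIM-1 and 63, 110 and 166 times with the empty vector.

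**Figure D1:**
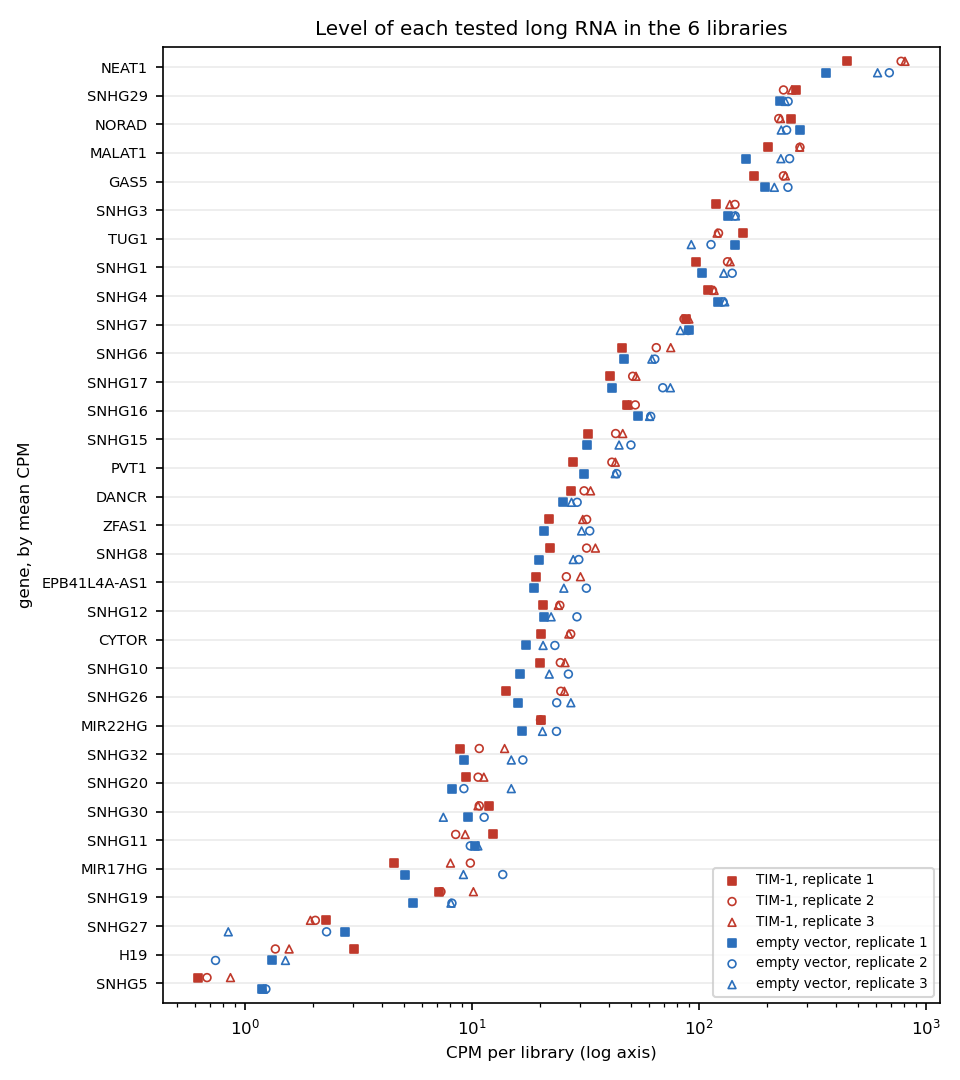
CPM of the 33 tested long RNAs on a log axis, 1 point per library, with TIM-1 in red above the empty vector in blue and replicate 1 as filled squares. NEAT1 is highest, and for most genes in the middle of the plot the filled squares lie left of the open symbols in both groups.

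Between replicates, the long RNAs were mostly lower in replicate 1. NEAT1 was lower in replicate 1 by 0.83 on the log2 scale, MALAT1 by 0.52 and GAS5 by 0.34, and MIR17HG by 1.07. Of the 33 tested genes 16 were lower and 2 were higher in replicate 1 at an adjusted p below 0.05 (edgeR quasi-likelihood test with group as a term). The background over all 14479 tested genes was 12% lower and 11.6% higher, against 48.5% and 6.06% of these long RNAs. Among genes with a mean of at least 10 CPM, 15.9% were lower, against 15 of the 28 long RNAs at that level (53.6%). The median log2 difference was -0.38 over the 33 and -0.01 over all tested genes. The total count of replicate 1 was the lowest in each group, and the part of depth in this difference was not tested.

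The nuclear body RNAs differed clearly between replicates. NEAT1 (chromosome 11 from 65422774 to 65445540, plus strand) had 450.1 CPM in TIM-1 replicate 1 and 364 CPM in empty-vector replicate 1. In replicates 2 and 3 it had 777 and 808 CPM with TIM-1 and 689 and 612 CPM with the empty vector. Both replicate 1 libraries lay below the other 4, with a log2 difference of -0.83 (SE 0.07, edgeR adjusted p = 1.19e-09). MALAT1, its neighbour on chromosome 11 (65497688 to 65506516, plus strand), had 201 CPM in TIM-1 replicate 1 and 161 CPM in empty-vector replicate 1, against 278 and 278 CPM in TIM-1 replicates 2 and 3 and 251 and 229 CPM in empty-vector replicates 2 and 3. Again the replicate 1 libraries did not overlap the rest, with a log2 difference of -0.52 (SE 0.07, edgeR adjusted p = 3.36e-06). The ratio of NEAT1 to MALAT1 counts was 2.24 with TIM-1 and 2.26 with the empty vector in replicate 1, against 2.67 to 2.91 in the other 4 libraries.

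Of the 24 tested hosts of small nucleolar RNAs 11 were lower in replicate 1, 0 were higher and 13 were not called. GAS5 (chromosome 1 from 173863900 to 173868882, minus strand), which hosts box C/D snoRNAs and accumulates in growth-arrested cells, had 174 CPM in TIM-1 replicate 1 and 196 CPM in empty-vector replicate 1. In replicates 2 and 3 it had 236 and 240.2 CPM with TIM-1 and 246 and 215 CPM with the empty vector. The replicate 1 libraries lay below all others (log2 difference -0.34, SE 0.07, edgeR adjusted p = 0.00135). Without TIM-1 replicate 1 the call was lost, at a log2 difference of -0.23 (edgeR adjusted p = 0.145).

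SNHG26, the host of SNORD93, had the largest called difference among the snoRNA hosts, with 14.1 and 16.0 CPM in replicate 1 of TIM-1 and of the empty vector. Its other libraries held 24.6 and 25.5 CPM with TIM-1 and 23.6 and 27.3 CPM with the empty vector (log2 difference -0.75, SE 0.12, edgeR adjusted p = 3.56e-05). SNHG1, which hosts several box C/D snoRNAs, had 97.1 and 103 CPM in replicate 1 of TIM-1 and of the empty vector. In replicates 2 and 3 it had 134 and 137 CPM with TIM-1 and 140.1 and 129 CPM with the empty vector (log2 difference -0.43, SE 0.07, edgeR adjusted p = 9.25e-05). In both genes the replicate 1 libraries stood below the other 4.

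SNHG6, SNHG8, SNHG10, SNHG15, SNHG17, SNHG32, ZFAS1 and EPB41L4A-AS1 were lower in replicate 1 too, with log2 differences from -0.46 (SNHG10) to -0.63 (SNHG32). In SNHG8 the level was 22.1 and 19.7 CPM in replicate 1 of TIM-1 and of the empty vector, against 32.0 and 35.0 CPM with TIM-1 and 29.6 and 27.9 CPM with the empty vector in replicates 2 and 3. ZFAS1, the host of the SNORD12 family, had 21.9 and 20.9 CPM in replicate 1 of TIM-1 and of the empty vector, against 30.4 to 33.0 CPM elsewhere. SNHG6 had 45.7 and 46.5 CPM in replicate 1 of TIM-1 and of the empty vector, against 64.8 and 75.1 CPM in TIM-1 replicates 2 and 3 and 63.9 and 62.0 CPM in empty-vector replicates 2 and 3. SNHG15 had 32.6 and 32.1 CPM in replicate 1, against 42.9 and 46.1 CPM in the other TIM-1 libraries and 50.2 and 44.5 CPM in the other empty-vector libraries. In both, the replicate 1 libraries were close to each other and below the rest. EPB41L4A-AS1, the host of SNORA13, had 19.2 and 18.9 CPM in replicate 1, against 26.1 and 30.1 CPM in the other TIM-1 libraries and 31.9 and 25.4 CPM in the other empty-vector libraries. SNHG10, the host of SCARNA13, had 19.9 and 16.2 CPM in replicate 1, against 24.5 and 25.7 CPM in the other TIM-1 libraries and 26.6 and 21.9 CPM in the other empty-vector libraries. SNHG32 had 8.90 and 9.27 CPM in replicate 1, against 10.8 and 13.9 CPM in the other TIM-1 libraries and 16.8 and 14.9 CPM in the other empty-vector libraries. None of these replicate 1 libraries overlapped the rest, and the narrowest gaps were those of SNHG10 and SNHG32. In each of the 11 called hosts the replicate 1 library was the lowest of its group in both groups, which held for 24 of the 33 long RNAs and for 26.7% of all tested genes. The calls of SNHG10, SNHG17, SNHG32 and EPB41L4A-AS1 were lost without empty-vector replicate 1, at edgeR adjusted p of 0.209, 0.0630, 0.182 and 0.0531.

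Not every host was lower. SNHG29, the most abundant host, had 267 and 227 CPM in replicate 1 of TIM-1 and of the empty vector, against 236 to 256 CPM and 240.1 to 247 CPM in replicates 2 and 3 (log2 difference 0.01, SE 0.07, edgeR adjusted p = 0.929). SNHG7 stood at 0.04 (SE 0.07, edgeR adjusted p = 0.762) and SNHG4 at -0.09 (SE 0.07, edgeR adjusted p = 0.386). SNHG3 and SNHG12 lay at -0.17 and -0.27 and did not pass, although their replicate 1 libraries were below the other 4. In all, replicate 1 did not overlap the other libraries from below in 20 of the 33 genes (60.6%), against 20.4% of all tested genes, and from above in 2, against 19.2%.

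Some of these hosts share exon bases with other genes, and whether reads were counted by strand is unknown. The share of exon bases that other counted genes also cover was 49.6% for EPB41L4A-AS1, 42.9% for ZFAS1, 29.3% for SNHG6, 23.2% for SNHG32 and 20.1% for SNHG10. SNHG16, which was not called, shared 30.6%. EPB41L4A, the opposite-strand partner of EPB41L4A-AS1, averaged 0.162 CPM in TIM-1 libraries and 0.202 CPM in empty-vector libraries. ZNFX1, an opposite-strand partner of ZFAS1, averaged 83.5 and 85.9 CPM in these groups, above the 28.2 and 28.1 CPM of ZFAS1. The part of partner reads in the counts of these hosts was not tested. SNHG1, SNHG8, SNHG15, SNHG17 and SNHG26 shared 0 bases.

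Among the microRNA hosts, MIR17HG was lower in replicate 1, with 4.55 CPM in the TIM-1 library and 5.07 CPM in the empty-vector library, against 9.84 and 8.04 CPM in TIM-1 replicates 2 and 3 and 13.7 and 9.17 CPM in empty-vector replicates 2 and 3. Both replicate 1 libraries lay below the rest (log2 difference -1.07, SE 0.19, edgeR adjusted p = 0.000216). MIR22HG stood at -0.20 (SE 0.12, edgeR adjusted p = 0.253) and H19, the imprinted RNA that holds miR-675, at 0.69 (SE 0.36, edgeR adjusted p = 0.166).

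The other long RNAs split. PVT1, the long RNA downstream of MYC, was lower in replicate 1 by 0.53 (SE 0.09, edgeR adjusted p = 0.000124) and CYTOR by 0.38 (SE 0.11, edgeR adjusted p = 0.0133), a call lost without TIM-1 replicate 1 and without empty-vector replicate 1. PVT1 had 27.7 and 31.1 CPM in replicate 1 of TIM-1 and of the empty vector, against 41.3 to 43.4 CPM elsewhere. CYTOR, a cytoplasmic long RNA, had 20.1 and 17.4 CPM in replicate 1, against 27.2 and 26.7 CPM in the other TIM-1 libraries and 23.2 and 20.6 CPM in the other empty-vector libraries, so that its gap was small. TUG1, a long RNA of broad expression, was higher in replicate 1, with 156 CPM in the TIM-1 library and 144 CPM in the empty-vector library, against 122 and 120.2 CPM in TIM-1 replicates 2 and 3 and 113 and 92.5 CPM in empty-vector replicates 2 and 3 (log2 difference 0.43, SE 0.08, edgeR adjusted p = 0.000224). NORAD was higher by 0.20 (SE 0.06, edgeR adjusted p = 0.0223), with 255 and 279 CPM in replicate 1 of TIM-1 and of the empty vector, against 225 to 243 CPM elsewhere. The NORAD call was lost without TIM-1 replicate 1, 2 or 3, without empty-vector replicate 1 and without the low-count filter, at edgeR adjusted p of up to 0.260.

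The windows of TUG1 and NORAD, from 250 bases before to 50 bases after the start, both held CACGTG, the letters of the E-box. These letters were searched after the values were seen and are shown because both genes moved against the rest. The match lies 77 bases before the start of TUG1 and 138 bases before that of NORAD (RefSeq, GRCh38.p14; capitals mark CACGTG, which reads the same on both strands).
TUG1, plus strand, chr22:30969161-30969220: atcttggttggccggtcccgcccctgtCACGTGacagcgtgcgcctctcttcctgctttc
NORAD, minus strand, chr20:36051066-36051125: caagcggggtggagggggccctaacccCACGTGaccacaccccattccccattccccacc
CACGTG was found in 7.26% of all 35116 windows, in 4 of the 36 windows of these long RNAs (also in SNHG7 and SNHG30) and in 0 of the 12 windows of genes lower in replicate 1. At a share of 7.26%, 12 windows are too few for the 0 to tell anything. This match, too, describes letters only.

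**Figure D2:**
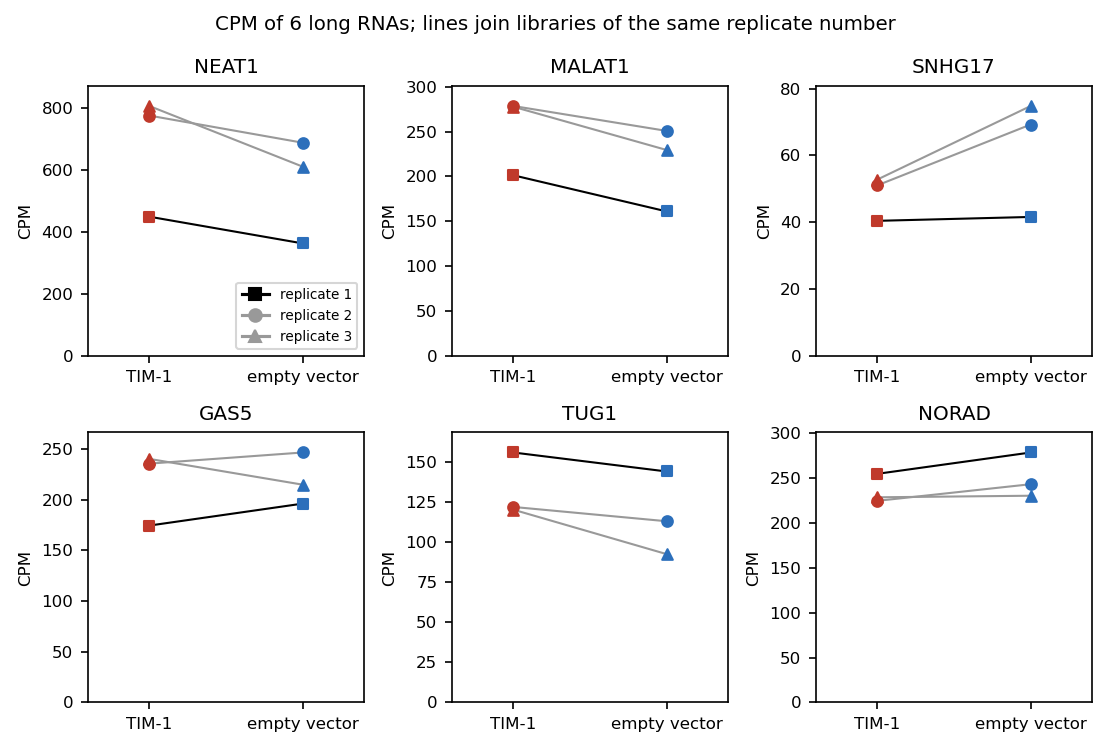
CPM of NEAT1, MALAT1, SNHG17, GAS5, TUG1 and NORAD in the TIM-1 (left, red) and empty-vector (right, blue) libraries, with lines joining libraries of the same replicate number and replicate 1 in black. The black line runs below the grey lines in NEAT1, MALAT1, SNHG17 and GAS5 and above them in TUG1 and NORAD.

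With TIM-1, NEAT1 and MALAT1 rose and SNHG17 fell when libraries of the same number were taken as pairs, and 0 of the 33 long RNAs passed the test when they were not. In the unpaired edgeR test 1 of the 33 (SNHG16) had an unadjusted p under 0.05, against 5.49% of all tested genes, and 0.0138% of all tested genes were called. DESeq2 without pairing also called 0. With the replicate number as a block, edgeR called 2 of the 33 higher (6.06%) and 1 lower (3.03%), against 3.22% and 1.79% of all tested genes (3 of 33 in either direction, against 5.01%). A block for replicate 1 alone called the same 3 genes, against 2.4% higher, 1.12% lower and 3.52% in either direction over all tested genes.

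NEAT1 stood at 450.1, 777 and 808 CPM in TIM-1 replicates 1, 2 and 3, and at 364, 689 and 612 CPM in the empty-vector replicates. Each TIM-1 library was above the empty-vector library of its number, but the groups overlapped, and replicate 1 was low in both. It differed by 0.29 unpaired on the log2 scale (SE 0.32, edgeR adjusted p = 0.932) and 0.29 with the block (SE 0.06, edgeR adjusted p = 0.000978), a 1.23-fold higher level. The unpaired value was 0.057 without empty-vector replicate 1 and 0.51 without TIM-1 replicate 1, the ends of its range when 1 library was left out. With the block it was called in all 6 further fits, at edgeR or DESeq2 adjusted p of 0.000210 to 0.0243.

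MALAT1 likewise was higher in each pair, with 201, 278 and 278 CPM in TIM-1 replicates 1, 2 and 3 and 161, 251 and 229 CPM in the empty-vector replicates. On the log2 scale it stood at 0.24 unpaired (SE 0.18, edgeR adjusted p = 0.917) and 0.25 with the block (SE 0.06, edgeR adjusted p = 0.00882). Leaving out 1 library moved the unpaired value between 0.070 (without empty-vector replicate 1) and 0.38 (without TIM-1 replicate 1). The groups overlapped, and the blocked call was lost without replicate 1 of both groups and without replicate 2 of both groups, at edgeR adjusted p of up to 0.0968.

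SNHG17, which hosts snoRNAs of the SNORA71 family, had 40.4, 51.0 and 52.8 CPM in TIM-1 replicates 1, 2 and 3, against 41.6, 69.3 and 74.8 CPM in the empty-vector replicates. The pair of replicate 1 was nearly level, at a log2 ratio of -0.04, and those of replicates 2 and 3 stood at -0.44 and -0.50. On the log2 scale it stood at -0.36 unpaired (SE 0.21, edgeR adjusted p = 0.901) and -0.34 with the block (SE 0.08, edgeR adjusted p = 0.00759), and the blocked call was lost without replicate 2, without replicate 3 and by DESeq2 (adjusted p of up to 0.282). Unpaired, leaving out 1 library moved it between -0.58, when empty-vector replicate 1 was absent, and -0.21, when replicate 3 of that group was. A test of whether the TIM-1 difference of SNHG17 itself differed between replicate 1 and the others gave an edgeR adjusted p of 0.877. In that interaction test 0 of the 33 long RNAs and 0 of all tested genes passed. SNHG17 was the 1 of the 33 with an unadjusted p under 0.05, against 5.38% of all tested genes. Its log2 difference there was 0.43 (SE 0.16, edgeR unadjusted p = 0.016).

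GAS5 did not move with TIM-1 beyond its spread, at 174, 236 and 240.2 CPM in TIM-1 replicates 1, 2 and 3 and 196, 246 and 215 CPM in the empty-vector replicates. Unpaired, it stood at -0.02 (SE 0.13, edgeR adjusted p = 0.994), and the log2 ratios of the pairs ran from -0.17 to 0.16. Across the 33, log2 fold changes ran from -0.73 (SNHG5) to 0.72 (H19), both genes of under 5 CPM, with a median of -0.01, against -0.0008 over all tested genes. TIM-1 was higher in all 3 pairs for 7 of the 33 (21.2%) and lower in all 3 for 8 (24.2%), against 20.1% and 19.1% of all tested genes.

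None of the 33 was higher with TIM-1 with groups that did not overlap, against 6.6% of all tested genes, and 3 of the 33 were lower without overlap (SNHG4, SNHG5 and SNHG16; 9.09%), against 5.06%. SNHG16, a host of box C/D snoRNAs, had 48.0, 52.4 and 48.9 CPM in TIM-1 replicates 1, 2 and 3 and 53.9, 61.3 and 60.6 CPM in the empty-vector replicates. Unpaired, SNHG16 stood at -0.24 (SE 0.10, edgeR adjusted p = 0.879). None of the 3 passed the test with or without the block.

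**Figure D3:**
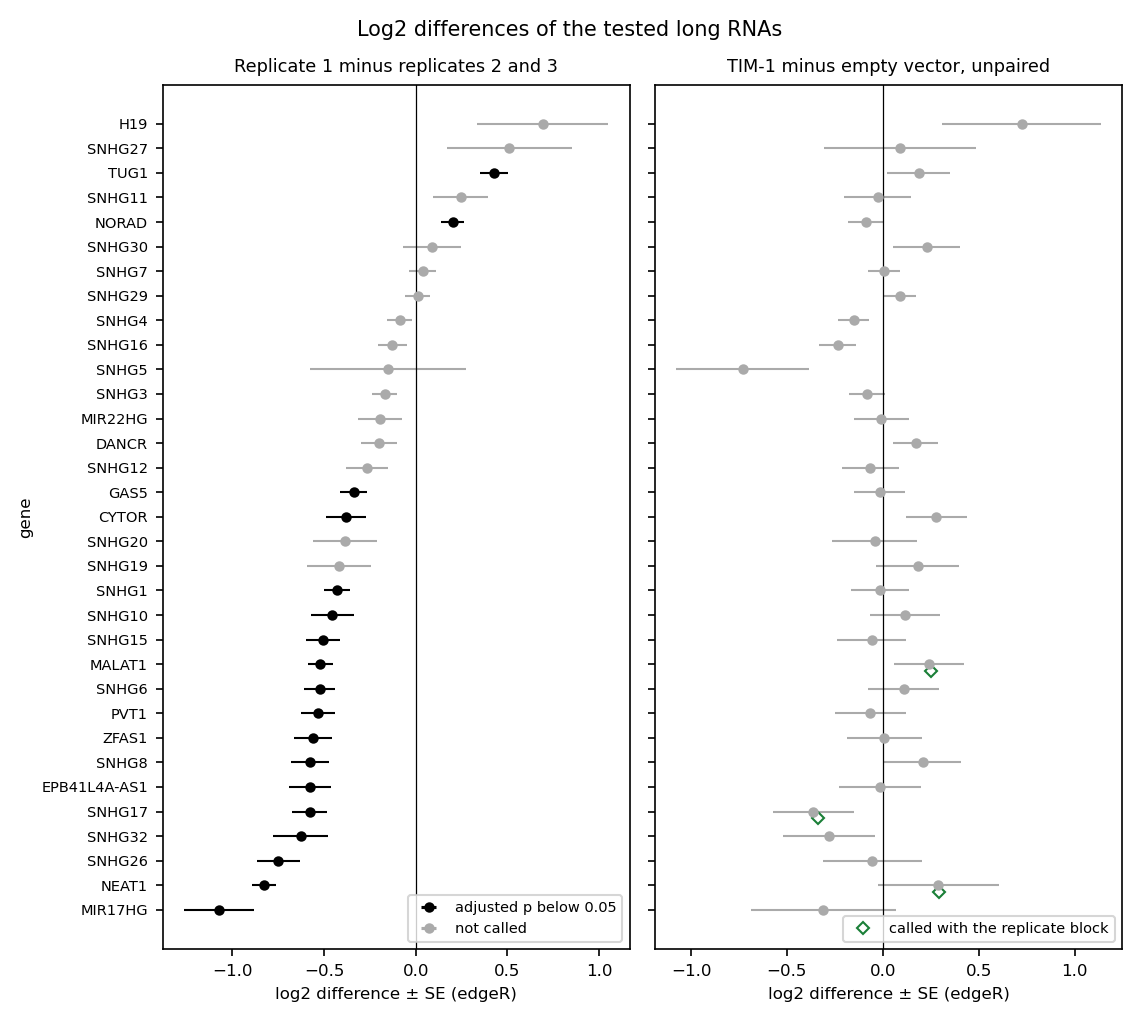
Log2 differences with standard errors from edgeR for the 33 tested long RNAs, between replicate 1 and replicates 2 and 3 (left panel, black where the adjusted p was below 0.05) and between TIM-1 and the empty vector (right panel). On the left 16 genes lie below 0 and 2 above it in black, while on the right no gene is called without the block, and open diamonds mark NEAT1, MALAT1 and SNHG17, called with it.

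Genes that work with these RNAs were read from lists, whose counts stand against 12% lower and 11.6% higher over all tested genes in replicate 1, and 1.79% lower and 3.22% higher with TIM-1 and the block. Of 25 protein-coding genes that also host snoRNAs, such as RPL13A and HSPA8, 10 were lower in replicate 1 and 0 higher, with a median log2 difference of -0.16. HSPA8, a heat shock cognate, was lower by 0.30 (edgeR adjusted p = 0.0012), NOP56 by 0.29 (0.00101) and EIF4A2, a translation initiation factor, by 0.28 (0.00223). HSPA8 was also the 1 gene of the 25 called with TIM-1 and the block, where it fell by 0.31 (edgeR adjusted p = 0.000536). Cytosolic ribosomal protein genes, listed by symbol after the data were seen, were lower in 34 of 81 (42%) and higher in 0, with a median of -0.17. Of 1512 other long noncoding RNAs 72 were lower (4.76%) and 104 higher (6.88%), with a median of 0.08. The lists were not matched on abundance, and they overlap. The ribosomal protein genes among the protein-coding hosts, such as RPL13A, are counted in both lists, so these are not independent. NOP56 is counted again among the box C/D proteins below.

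The core proteins of snoRNA particles were partly lower in replicate 1. Of the 4 box C/D proteins NOP56 (-0.29) and SNU13 (-0.29, edgeR adjusted p = 0.00396) were lower, and of the 4 box H/ACA proteins GAR1 (-0.58, edgeR adjusted p = 8.63e-05) and NOP10 (-0.39, edgeR adjusted p = 0.00128). Of 10 assembly factors 3 were lower, namely NUFIP1 (-0.43), ZNHIT6 (-0.41) and NOLC1 (-0.21). With TIM-1, NOP58, a box C/D core protein, fell by 0.24 with the block (edgeR adjusted p = 0.0173), as did the assembly factors ZNHIT6 by 0.26 (0.0235) and SHQ1 by 0.31 (0.0494), and 0 of these 18 genes passed unpaired.

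Of 10 nonsense-mediated decay factors 7 were not called in replicate 1, 2 were higher (20%), UPF3B (0.30) and SMG6 (0.29), and 1 was lower (10%), SMG9 (-0.28), against 11.6% higher and 12% lower over all tested genes. SMG9 also fell by 0.26 with TIM-1 and the block (edgeR adjusted p = 0.0163), 1 of the 10 (10%) against 1.79%. Of 12 paraspeckle proteins, which bind NEAT1, 4 were lower (33.3%) and 0 higher in replicate 1, among them PSPC1 (-0.52, edgeR adjusted p = 2.27e-05), RBM14 (-0.39) and HNRNPH3 (-0.32). NONO, SFPQ and HNRNPK stood at -0.05, -0.14 and 0.06 and did not pass. RBM14 fell by 0.40 with TIM-1 with the block (edgeR adjusted p = 0.000154), the 1 call among the 12 (8.33%). Of 11 nuclear speckle proteins 2 were higher in replicate 1 (18.2%), RBM25 (0.27) and SRSF3 (0.19), 1 was lower (9.09%), SRSF1 (-0.19), and 8 were not called, shares near those of all tested genes. With TIM-1, edgeR called 0 of the 11 with or without the block. The Pumilio gene PUM2 (0.25, edgeR adjusted p = 0.00719) was higher in replicate 1, as NORAD was, and had a TIM-1 log2 fold change with the block of -0.06, not called.

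Genes beside the long RNAs did not all follow them. Of 15 listed 11 were tested, of which 3 were lower and 1 higher in replicate 1. MYC, upstream of PVT1, was lower by 0.93 (edgeR adjusted p = 5.62e-10) and SLC3A2, an amino acid transporter subunit gene next to SNHG1, by 0.53 (edgeR adjusted p = 2.50e-06), in the direction of their neighbours. WDR81, next to MIR22HG, was lower by 0.39, while MIR22HG was not called. ZNFX1, next to ZFAS1, stood at 0.16 and ZBTB37, next to GAS5, at -0.11, both not called. With TIM-1 and the block MYC fell by 0.35 (edgeR adjusted p = 0.000105), SLC3A2 by 0.21 and WDR81 by 0.37, while PVT1, SNHG1 and MIR22HG stood at -0.07, -0.02 and -0.00 and were not called.

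**Figure D4:**
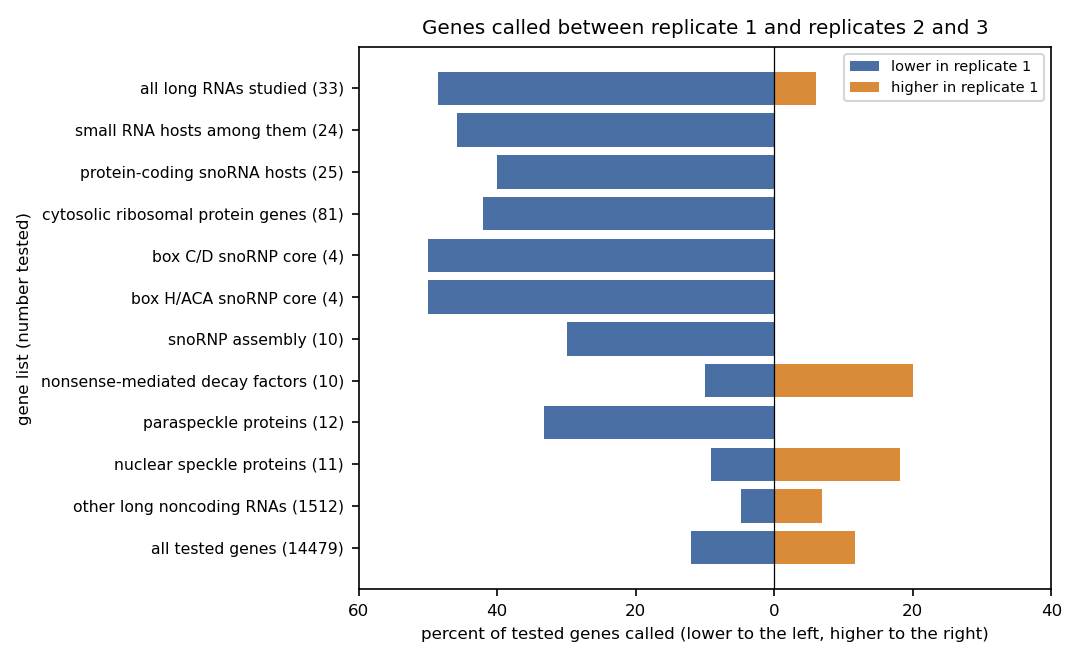
Percent of tested genes in each list called lower (blue, left) or higher (orange, right) in replicate 1 than in replicates 2 and 3, with the number tested in brackets. The long RNAs studied reach 48.5% lower, against 12% of all tested genes and 4.76% of other long noncoding RNAs.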

How the data were processed

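The authors deposited 1 table of raw read counts per Ensembl gene, with 1 column per library and no normalization, per the file headers. The submitters' processing notes name the build hg38 and the tools HISAT2 2.0.5, featureCounts 1.5.0-p3 and DESeq2 1.16.1. Annotation release, strandedness and multi-mapping handling remain not given in the sources used here. Every library column was mapped by its sample title. Symbols came from a table of gene names, and positions and exon lengths from GENCODE 29 (GRCh38), which held 58337 of 60605 identifiers.

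Counts were tested with edgeR 4.0.16 in R 4.3.3 (robust quasi-likelihood F test, TMM, filterByExpr with a minimum count of 10), fitted on all 14479 genes kept and adjusted by Benjamini-Hochberg over them, with a threshold of 0.05. The designs were group alone, group with a replicate 1 term, and their interaction, and standard errors were derived from F. CPM use TMM-scaled library sizes. DESeq2 1.42.0, RLE size factors, no filter and leaving out each library were alternatives. The test was also run on simulated counts with planted differences larger than most of those found here, so that run does not cover smaller ones. A block for the replicate number was an alternative for TIM-1, and its own alternatives were added after seeing the data. Deviations from group means of same-numbered libraries correlated at 0.53, 0.23 and 0.26 for replicates 1, 2 and 3 over genes, so the numbers were taken as pairs. The unlike pairs of replicates 2 and 3 reached 0.26 and 0.19, so only replicate 1 is clearly paired. Libraries of a group differed by more than sampling noise (chi-square per degree of freedom 4.18 to 27.3). Floors cover counting error only and take 3 counts.

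The genes, the lists and the comparison of replicate 1 with replicates 2 and 3 were chosen with earlier results of these data known. Named genes were MALAT1, NEAT1, GAS5 and each long RNA past the threshold in any of the 3 tests. In the other lists, up to 3 called genes of smallest p were named per comparison, or else the 2 most abundant. Further genes were named after their values were seen. Some listed genes are not reported here by name.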

Additional observations from a re-analysis of the deposited data

How the results depend on the processing

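In the unpaired TIM-1 test 0 long RNAs were called with RLE size factors, without the low-count filter, by DESeq2 and without each library in turn. The replicate block, of 3 levels or of 2 (replicate 1 against the rest), gave 2 higher and 1 lower. With the block and without replicate 1, 2 or 3 of both groups, between 1 and 2 were higher and between 0 and 1 lower, and DESeq2 with the block called 0 lower. The 16 genes lower in replicate 1 became between 11 and 18 when each library was left out, and the 2 higher became between 1 and 2, with 1 higher without the low-count filter. Of these 18 calls 11 were kept in all 9 alternatives. The cause of the lost calls was not tested, and fits without a library hold fewer samples. Unpaired TIM-1 log2 fold changes of uncalled genes changed sign when 1 library was left out, running from -0.10 to 0.12 for GAS5, -0.13 to 0.13 for SNHG1, -0.058 to 0.28 for SNHG6, -0.055 to 0.29 for SNHG10, -0.22 to 0.08 for SNHG15, -0.25 to 0.17 for SNHG26, -0.61 to 0.070 for MIR17HG, -0.21 to 0.11 for PVT1, -0.17 to 0.16 for ZFAS1 and -0.19 to 0.18 for EPB41L4A-AS1. The 11 genes that were not tested had too few counts for the filter, and the part of depth in this was not tested.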
